A study of Mus musculus with 9 samples.

Results

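Wild-type mouse macrophages that had received exosomes from ApoE-deficient macrophages were compared with macrophages that had received PBS. The comparison rests on 6 of the 9 libraries of the study, 3 per group, taken by their labelled treatment. Bone marrow of male mice aged 6 to 12 weeks was grown for 6 days with M-CSF at 25 ng/mL, which gives bone marrow-derived macrophages (BMDM). The macrophages then received, over 18 hours, exosomes at 2e+09 particles/mL or only PBS as vehicle. Donors of the exosomes were BMDM grown from ApoE-deficient mice (EKO in the labels) or, for the remaining 3 libraries, from wild-type mice. All recipient cells are labelled wild type, so Apoe was intact in every cell whose RNA was measured, and only the donors of the exosomes differed in genotype. The sources used here do not give the mouse strain, how the exosomes were isolated, or whether replicates came from separate mice or separate exosome preparations. The p-values therefore measure the spread between these libraries, although the design text speaks of biological replicates. The stated question was which mRNAs such exosomes change in the cells that receive them.

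Exosomes are small membrane vesicles that form inside late endosomes and are released when these fuse with the plasma membrane. They carry proteins, lipids and RNA, and macrophages take them up and deliver much of their content to the lysosome. ApoE is the lipid carrier with which macrophages export cholesterol, and mice that lack it accumulate cholesterol-rich lipoproteins and develop atherosclerosis. Macrophages grown in M-CSF resemble resting tissue macrophages: they express receptors for complement, antibodies, chemokines and microbial products, keep a large lysosomal compartment, and show a low tonic activity of interferon target genes.

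The 6 libraries held 28581306 to 35929596 counts, with 17675 to 18680 genes detected. Levels are given as CPM (counts relative to the library's total, scaled with the library factors of edgeR), and an SE belongs to a log2 fold change of the fit. Apoe itself (ENSMUSG00000002985) stood at 19394, 18760.0 and 18725 CPM in EKO replicates 1 to 3 and at 18933, 18963 and 20081 CPM in the PBS replicates. The groups overlapped, and the log2 fold change of -0.028 ± 0.023 SE did not pass (edgeR adjusted p = 0.729). All 15 macrophage markers were expressed, and 10 of them fell and 0 rose. Their summed level was 25800 to 26600 CPM in the EKO libraries and 28500 to 29700 CPM after PBS, without overlap. Lyz2, at up to 14700 CPM, was the largest part of this sum. In counts not scaled for depth, other members overlapped. Cd68 had 89939, 74321 and 93304 in the EKO libraries and 74275, 80735 and 89386 after PBS. Trem2 had 38955, 32011 and 37992 and 30701, 34633 and 39420. In bulk RNA, fewer cells of a type and less RNA per cell cannot be told apart. Of the markers of other blood cells, Prtn3, Ctsg, Cd79a, Igkc, Cd8a, Ppbp and Gp9 had 0 counts in all 6 libraries. Other members of these lists were present. S100a9 had 33, 105 and 150 counts in the EKO libraries and 148, 280 and 230 after PBS. In the same order, S100a8 had 14, 40 and 73 and 76, 100 and 96, and Ngp 48, 104 and 200 and 275, 325 and 293. Mmp8 had 318, 214 and 189 and 247, 354 and 189, and Cd4 had 99, 112 and 201 and 161, 130 and 231. Ltf had 32, 63 and 184 and 103, 264 and 207, and Lcn2 had 2, 32 and 65 and 63, 83 and 69. The summed neutrophil markers ranged from 177 to 193 CPM in the EKO libraries and from 207 to 214 CPM after PBS, without overlap. Most of the sum was Csf3r, whose own counts overlapped between the groups (5901, 4940 and 5541 against 5159, 5536 and 6232). Of the 8 neutrophil markers tested, 0 passed in edgeR and 0 in DESeq2, and 1 was under an unadjusted p of 0.05 in edgeR and 2 in DESeq2. Megakaryocyte markers summed to 187 to 194 CPM against 137 to 156 CPM, almost entirely from Vwf, which rose by 0.41 on the log2 scale (edgeR adjusted p = 3.36e-07). B cell markers summed to 39.3 to 55.9 CPM in the EKO libraries and 47.2 to 50.5 CPM after PBS, almost entirely from Ighm. Dendritic cell markers, nearly all Bst2, reached 82.8 to 90.1 CPM against 88.9 to 102 CPM. Markers of fibroblasts and stroma summed to 6.87 to 32.7 CPM against 12.1 to 72.6 CPM, and of 6 tested, 0 passed. Col1a1 had 162, 147 and 428 counts in the EKO libraries and 185, 216 and 1263 after PBS, most in PBS replicate 3. Endothelial markers summed to 15.3 to 17.9 CPM against 13 to 19.3 CPM. The part of such cells in the results was not tested. A principal component analysis of the 6 libraries placed the EKO libraries at -15.9, -44.3 and -1.33 on component 1, which held 24.4% of the variance, and the PBS libraries at 4.98, 31.5 and 25. Component 2 held nearly as much, 22.1%, and mostly spread the PBS libraries. On it they stood at 11.6, 35 and -45.3, and the EKO libraries at 6.53, -1.61 and -6.2.

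ApoE-deficient exosomes changed many transcripts by small amounts. Of 13815 genes tested, 252 rose (1.82%) and 333 fell (2.41%), or 585 in all (4.23%), at a Benjamini-Hochberg adjusted p under 0.05 in edgeR's quasi-likelihood test. The rises were the smaller changes. Of the genes that rose, 154 had a log2 fold change under 0.25 and 15 reached 0.5, and none reached 1. Of those that fell, 140 stayed under 0.25 in size, 57 lay between 0.5 and 1, and 11 reached 1. The median log2 fold change was 0.22 among genes that rose, -0.28 among genes that fell and -0.0005 over all genes tested. The genes that passed were abundant ones, with a median of 141 CPM after PBS against 18 CPM for all genes tested, and 579 of 585 were protein-coding. In 570 of the 585, the lowest library of the higher group lay above the highest of the lower group. Over all genes tested, 9.06% were separated in this way with the EKO libraries higher and 9.24% with them lower.

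**Figure D1:**
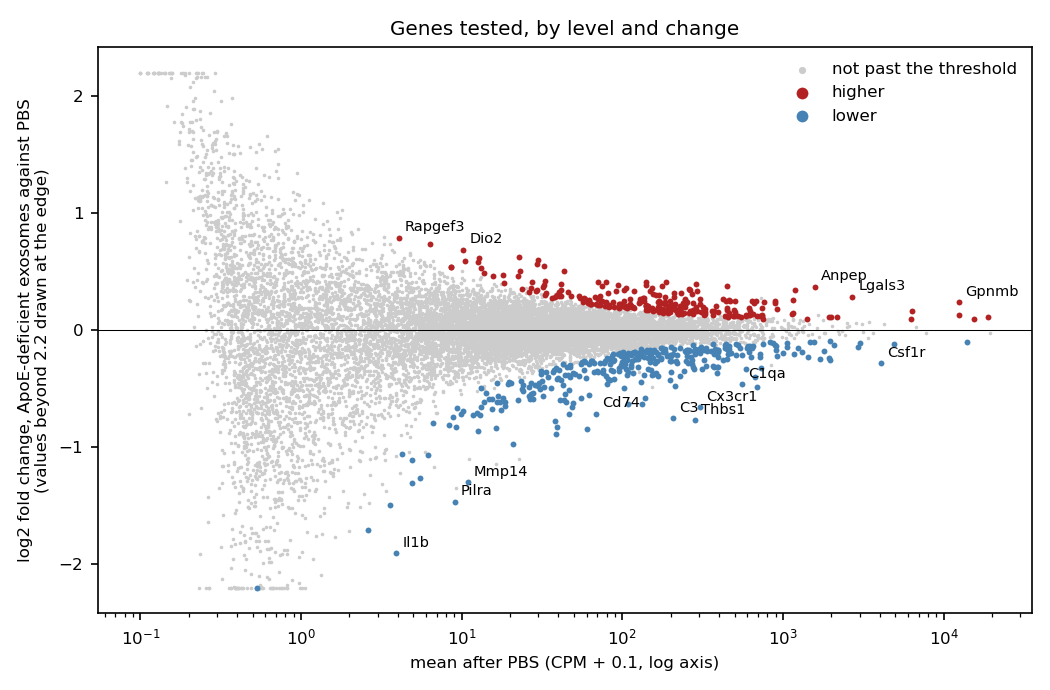
Each point is a gene tested, with its mean CPM after PBS (plus 0.1, log axis) across and its log2 fold change for ApoE-deficient exosomes against PBS upwards; red points rose and blue points fell at an edgeR adjusted p under 0.05. The 252 genes that rose all stayed under a log2 fold change of 1, whereas 11 of the 333 that fell reached 1 in size.

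Among the 12 genes that fell with the lowest p were the complement genes C1qa and C3 and the receptors Fcgr1 and Cx3cr1. These genes, and those that rose with the lowest p, were picked only where the groups did not overlap. Their separation is therefore no added support. C1qa, a chain of the complement initiator C1q, had 409, 396 and 402 CPM in the EKO libraries and 553, 563 and 548 CPM after PBS (log2 fold change -0.46 ± 0.032 SE, edgeR adjusted p = 9.49e-13). C3, the central complement component, fell from 227, 201 and 194 to 129, 128 and 113 CPM, by 0.75 on the log2 scale (adjusted p = 1.99e-12). For both genes, every EKO library lay below every PBS library by more than the spread within either group. Fcgr1, the high-affinity receptor for IgG, read 91.5, 89.7 and 95.97 CPM against 130.4, 143 and 141 CPM (-0.58 ± 0.052 SE, adjusted p = 6.61e-10). Cx3cr1, the receptor for fractalkine, read 194, 196 and 193 CPM against 297, 305 and 317 CPM (-0.65 ± 0.039 SE, adjusted p = 2.76e-14). The EKO libraries agreed closely for Cx3cr1, and in neither gene did the groups overlap. In percent of the PBS level, C1qa dropped by 27.5%, Cx3cr1 by 36.5% and Thbs1, the matrix protein thrombospondin 1, by 41.3%.

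Marcksl1, Fos, Abca1, Csf1r, Cd14 and Rassf4 were also among these genes. Marcksl1, which links actin to the membrane, had 20.8, 20.8 and 20.9 CPM in the EKO libraries and 39.6, 35.6 and 39.97 CPM after PBS, the steepest fall among these 12 genes (-0.88 ± 0.095 SE, edgeR adjusted p = 3.5e-08). Fos, the immediate early AP-1 subunit, read 68.6, 69.8 and 72.3 CPM against 103, 110.2 and 114 CPM (-0.63 ± 0.062 SE, adjusted p = 5.4e-09). Abca1, the pump that loads cholesterol onto apolipoproteins including ApoE, read 503, 507 and 508 CPM against 684, 653 and 669.9 CPM (-0.40 ± 0.033 SE, adjusted p = 4.93e-11). The Abca1 values of the EKO libraries nearly coincided, well below the PBS libraries. Csf1r, the receptor for the M-CSF in which the cells were grown, fell by 0.28 on the log2 scale from a high level (4192, 3919.7 and 4042 CPM after PBS, 3438, 3253 and 3290.0 CPM in the EKO libraries). Cd14, the co-receptor for lipopolysaccharide, fell by 0.37, and Rassf4, a Ras-association domain protein, by 0.33.

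Among the 12 genes that rose with the lowest p were Anpep, Plxna1, Gpnmb, Lgals3, Spp1 and Atp6v1a. Anpep, the surface aminopeptidase CD13, had 2042, 1983 and 2116 CPM in the EKO libraries and 1547, 1587 and 1614 CPM after PBS (log2 fold change 0.37 ± 0.028 SE, edgeR adjusted p = 9.22e-12). Plxna1, a semaphorin receptor, read 1539, 1488 and 1531 CPM against 1194, 1175 and 1215 CPM (0.35 ± 0.028 SE, adjusted p = 3.61e-11). Gpnmb, a lysosomal glycoprotein that is also induced in lipid-laden macrophages, read 14619, 14566 and 14962 CPM against 12674, 12113 and 12586 CPM (0.24 ± 0.024 SE, adjusted p = 7.06e-09). In each of the 3 genes the lowest EKO library was above the highest PBS library, although no rise exceeded 29.4%. Lgals3, which encodes galectin 3 and marks damaged lysosomes, read 3297, 3259 and 3324 CPM against 2663, 2587 and 2853 CPM (0.29 ± 0.028 SE, adjusted p = 5.4e-09). Spp1, the secreted phosphoprotein osteopontin, read 1382, 1352 and 1433 CPM against 1165, 1158 and 1166 CPM (0.26 ± 0.028 SE, adjusted p = 6.42e-08). Atp6v1a, the catalytic subunit of the vacuolar proton pump, read 1072, 1034 and 1068 CPM against 890.1, 872 and 900.1 CPM (0.25 ± 0.029 SE, adjusted p = 1.02e-07). The PBS libraries were tight for Spp1 and Atp6v1a, and again the groups did not overlap.

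The other genes of this rank rose by similar amounts. They were Tecpr1, a tether between autophagosomes and lysosomes (0.38), Slc6a8, the creatine transporter (0.35), Dot1l, the histone H3 lysine methyltransferase (0.37), Ipo5, a nuclear import receptor (0.32), Nav2 (0.39) and C77080 (0.42), all as log2 fold changes. All 24 genes of both directions passed under each of the 17 other settings run.

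**Figure D2:**
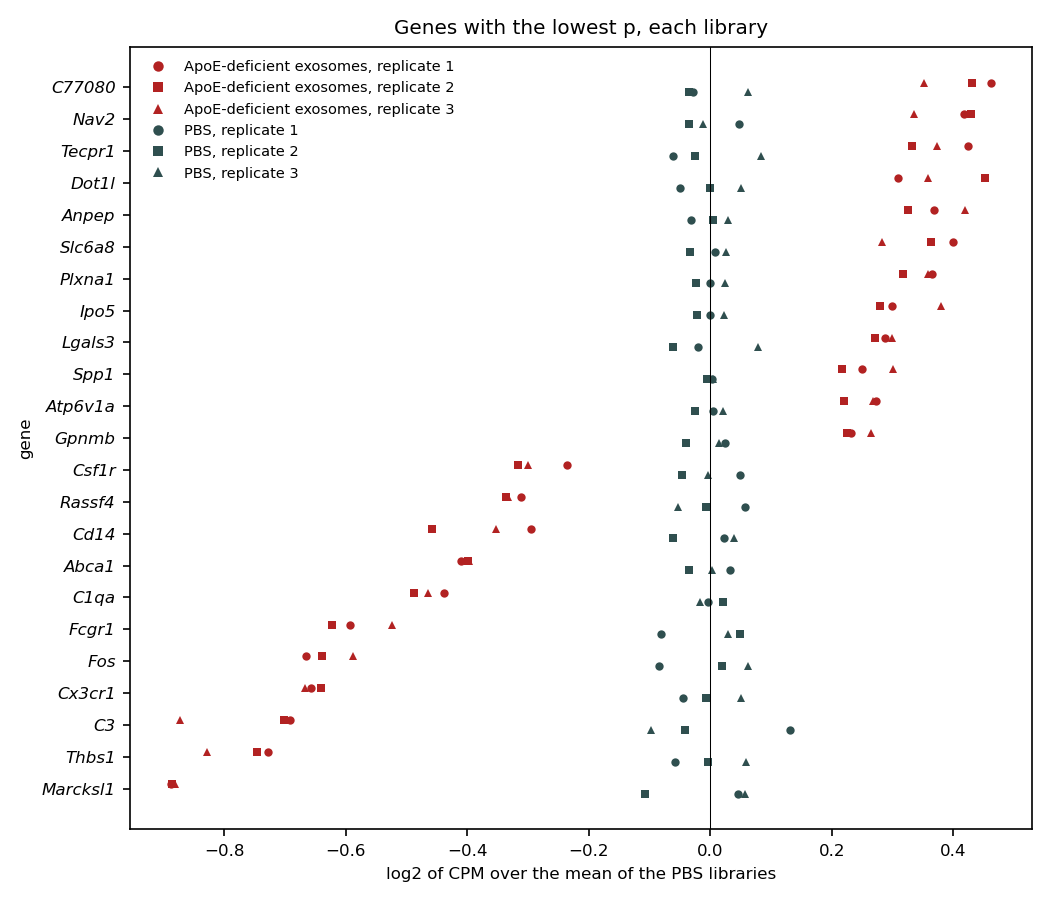
For the 12 genes that rose and 11 of the 12 that fell with the lowest p, each point is a library's log2 ratio of CPM to the mean of the PBS libraries (red, ApoE-deficient exosomes; dark, PBS; the marker shape gives the replicate). Genes were picked only where the groups did not overlap, so no gene shows an overlap. The 3 EKO values of Marcksl1 and Abca1 nearly coincide.

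The largest falls were seen in genes of low level. Pilra, an inhibitory receptor for sialylated ligands, had 3.16, 2.52 and 4.03 CPM in the EKO libraries and 7.8, 10.8 and 8.33 CPM after PBS (-1.47 ± 0.23 SE, edgeR adjusted p = 2.25e-05). Mmp14, the membrane-anchored collagenase, read 4.28, 3.88 and 4.98 CPM against 11.2, 13.2 and 8.07 CPM (-1.30 ± 0.21 SE, adjusted p = 4.34e-05). The groups did not overlap in either gene, which their selection required, and PBS replicate 3 of Mmp14 lay nearest to the EKO libraries. Il1b, the cytokine interleukin 1 beta, read 1.34, 0.629 and 1.04 CPM against 4.49, 3.07 and 3.85 CPM (-1.91 ± 0.36 SE, adjusted p = 0.000498), a low level throughout. Pik3c2b, a lipid kinase chosen after its values were seen, had 0 counts in each EKO library and 9, 10 and 24 counts after PBS. Against a floor of 3 counts over the group it was at least 14.6-fold lower.

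The lists of genes described from here on hold textbook members of pathways and cell functions, but which lists to use was settled with earlier results of these data known, so their counts are a description and no independent evidence of a pattern. They are given as counts of members that passed, to be read against 1.82% of all genes that rose and 2.41% that fell, and as the median log2 fold change of the members, to be read against -0.0005 over all genes.

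Many complement components and receptors fell: 8 of 18 tested passed, all lower, with a median log2 fold change of -0.25. All 3 chains of C1q were among them, whose genes C1qa, C1qb and C1qc lie side by side on chromosome 4. C1qb fell from 1946, 1924 and 2036 to 1639, 1642 and 1677 CPM, and C1qc from 1677, 1642 and 1753 to 1429, 1400.0 and 1446 CPM. These falls of 0.25 and 0.25 on the log2 scale were smaller than that of C1qa. Cfp, properdin, which stabilises the C3 convertase, fell by 0.47 (edgeR adjusted p = 0.000153), and Itgam, the alpha chain of complement receptor 3, by 0.44. Of the Itgam exon length, 68.7% overlaps exons of other genes, and the strand setting of the counting is not given in the sources used here.

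Antibody receptors and their signalling proteins were mixed. Of 20 tested, 6 fell and 1 rose, and the median log2 fold change was -0.040. Beside Fcgr1, the phosphatase Ptpn6 fell (341, 344 and 347 CPM against 391, 392 and 395 CPM, -0.19 ± 0.035 SE) and so did the adaptor Lcp2 (-0.33 ± 0.064 SE). Lat2, an adaptor of the same pathway, rose (0.32 ± 0.042 SE, edgeR adjusted p = 1.5e-06), with 36.3% of its exon length shared with exons of other genes. Without EKO replicate 2, 3 members fell in place of 6. The letters GAGGAAG, the core bound by the myeloid factor PU.1, were searched on either strand within 250 bases before the start. Of genes with a RefSeq promoter, 6 of 15 of this list held them (40%), against 13.3% of the matched genes tested. So did 3 of 14 of the complement list (21.4%) and 1 of 16 chemoattractant receptors (6.25%). Among members that passed and had a promoter, 1 of 4, 2 of 6 and 0 of 6 held them, in this order of lists. Paired receptors, a list that holds both inhibitory and activating members, also went both ways, with 4 of 22 lower and 3 higher. Siglec1, the sialic acid receptor of resident macrophages, read 267, 255 and 286 CPM against 312, 314 and 339 CPM (-0.26 ± 0.041 SE). Cd300ld fell by 0.28, whereas Cd200r4 rose by 0.39. Without EKO replicate 1, or without PBS replicate 3, 1 of these receptors rose in place of 3.

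Receptors for chemoattractants also fell in part: 8 of 19 passed, all lower, and the median log2 fold change was -0.43. Cx3cr1 led them. P2ry6, a receptor for UDP, was at 266, 265 and 268 CPM against 302, 291 and 302 CPM (-0.16 ± 0.037 SE). Cmklr1, the chemerin receptor, read 5.88, 4.72 and 4.87 CPM against 7.63, 8.3 and 11.5 CPM (-0.83 ± 0.20 SE), and its call was lost without EKO replicate 2 or 3 or without PBS replicate 3. The count of 8 fell to 4 without EKO replicate 2, to 3 without EKO replicate 3, to 5 without PBS replicate 2 and to 4 without PBS replicate 3. Chemokines had 3 of 12 members lower and 1 higher. Cxcl16 read 315, 299.8 and 318 CPM against 386, 382 and 393 CPM (-0.31 ± 0.037 SE), and Ccl9 read 157, 154 and 159.8 CPM against 205, 202 and 198 CPM (-0.36 ± 0.043 SE). Ccl3 was the member that rose (0.34 ± 0.089 SE), a call lost without EKO replicate 1, EKO replicate 3 or PBS replicate 2.

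Of 25 Toll-like receptors and adaptors, 6 fell and 0 rose in edgeR, with a median log2 fold change of -0.10. At an unadjusted p under 0.05, 3 members were higher and 8 lower, and DESeq2 called 0 higher and 6 lower. Cd14 led the list, at 317, 284 and 305 CPM against 395, 373 and 400.1 CPM (edgeR adjusted p = 5e-08). Tlr2, which senses bacterial lipoproteins, read 73.9, 71.5 and 71.2 CPM against 113, 94.1 and 98.5 CPM (-0.50 ± 0.062 SE). Ly86, the partner of the receptor-like Cd180, fell by 0.38, and Unc93b1, which carries the nucleic acid sensors to endosomes, by 0.20 from 1158, 1152 and 1187 CPM after PBS. The endosomal sensors Tlr9 and Tlr8 fell by 0.35 and 0.17. The 6 calls stayed at 6 when any of the 9 libraries was left out, and 1 member rose without EKO replicate 1 or 2 or without replicate 2 or 3 of the wild-type exosomes. Myeloid C-type lectins had 3 of 16 members lower and a median of -0.25. Clec4a1, Clec4a3 and Clec4e, which lie in a cluster on chromosome 6, had log2 fold changes of -0.72, -0.48 and -0.59. Reads of the similar Clec4a genes may be split between copies, which was not tested.

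The four-span membrane proteins of the Tmem176 and Ms4a families, which serve in antigen handling and receptor signalling, had the highest share of members lower of all lists: 6 of 9, with a median log2 fold change of -0.56. Tmem176b read 32.7, 38.2 and 29.1 CPM in the EKO libraries and 68.99, 48.1 and 62.7 CPM after PBS (-0.85 ± 0.10 SE, edgeR adjusted p = 2.24e-07). Its neighbour on chromosome 6, Tmem176a, read 12.1, 9.78 and 9.73 CPM against 20.96, 20.999 and 20.2 CPM (-0.97 ± 0.14 SE, adjusted p = 8.71e-06). The groups were apart in both genes, and PBS replicate 2 of Tmem176b was the lowest of its group. On chromosome 19, Ms4a6b fell by 0.57, Ms4a14 by 0.30, and Ms4a6c, with 53.1% of its exon length shared with other genes, by 0.46. All 9 members had a log2 fold change below 0.

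The list of NF-kB subunits, feedback regulators and targets fell in part: 11 of 31 passed, all lower, with a median of -0.20. Tnip3, a feedback inhibitor of NF-kB, read 27.4, 30.99 and 29.2 CPM against 45.3, 45.04 and 43.8 CPM (-0.62 ± 0.087 SE, edgeR adjusted p = 5.39e-06). Ikbke, a kinase of the interferon and NF-kB pathways, read 125, 113 and 126 CPM against 159, 164 and 150.2 CPM (-0.38 ± 0.051 SE), and the adhesion molecule Icam1 read 59.8, 63.3 and 60.7 CPM against 83.98, 79.2 and 82.4 CPM (-0.42 ± 0.063 SE). No EKO library reached the lowest PBS library in these 3 genes. Birc3, an inhibitor of apoptosis, fell by 0.40. Nfkbia and Nfkbiz, inhibitors of the IkB family named after their values were seen, had log2 fold changes of -0.28 and -0.56. Between 9 and 11 members passed when single libraries were left out. In the IL-1 family and inflammasome list, 3 of 20 fell: Il1b, Nlrp3, the sensor of the inflammasome (-0.34 ± 0.066 SE), and Nlrp1b (-0.25 ± 0.056 SE), whose call was lost without EKO replicate 2 or PBS replicate 2.

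Immediate early genes, which respond to growth factor and stress signals within minutes, had 8 of 28 members lower and 1 higher, with a median of -0.18. After Fos, the mRNA-destabilising proteins Zfp36l1 (-0.39 ± 0.044 SE) and Zfp36 (-0.22 ± 0.044 SE) had the lowest p. Zfp36l1 shares 55.9% of its exon length with other genes. Nr4a1, an orphan nuclear receptor, read 9.07, 10.8 and 8.95 CPM against 17.6, 14.2 and 14.05 CPM (-0.67 ± 0.15 SE), and missed the threshold without PBS replicate 1 (edgeR adjusted p = 0.0505). Dusp1, a phosphatase of MAP kinases, fell by 0.34. Jun, named after its values were seen, was the member that rose (0.18 ± 0.041 SE), and 2 rose without PBS replicate 3. In the cyclic AMP list, 3 of 28 fell and 2 rose. The phosphodiesterase Pde3b read 28.3, 24.7 and 28.3 CPM against 38.6, 44.7 and 39.8 CPM (-0.60 ± 0.093 SE), and Dio2, the enzyme that activates thyroid hormone, rose from 10.4, 8.96 and 11.1 to 15.5, 16.8 and 16.9 CPM (0.69 ± 0.14 SE, adjusted p = 0.00133). Without PBS replicate 1, 1 member fell in place of 3. The 2 members that rose became 1 without EKO replicate 2, EKO replicate 3, PBS replicate 1 or PBS replicate 3.

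Of Csf1r and the transcription factors of the macrophage lineage, 7 of 31 fell and 2 rose, with a median of -0.10. Maf, which holds macrophages in their differentiated state, read 380.2, 382 and 375 CPM against 444, 450.3 and 451 CPM. Its fall of 0.24 on the log2 scale was small but exceeded the spread of the libraries (edgeR adjusted p = 2.95e-06). Mef2c fell by 0.36. Bhlhe41 rose from 144, 143 and 137 to 193, 183 and 179 CPM (0.39 ± 0.046 SE, adjusted p = 2.71e-07), and its relative Bhlhe40 rose by 0.47. These are transcriptional repressors that support the self-renewal of macrophages. Il10ra, the receptor chain for interleukin 10, fell by 0.34 and was 1 of 2 genes of 18 in the alternative activation list that fell, a count that was 1 without EKO replicate 3 or PBS replicate 3.

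Interferon-stimulated genes held the largest number of falls: 29 of 65 passed, all lower, with a median log2 fold change of -0.29. At an unadjusted p under 0.05, edgeR had 45 members lower and 0 higher, and DESeq2 called 31 lower and 0 higher. Ifit2, which binds viral RNA, read 21.9, 18.8 and 26.3 CPM against 32.1, 44.5 and 38.1 CPM (-0.78 ± 0.12 SE, edgeR adjusted p = 1.67e-05). Rtp4, an interferon-induced chaperone, read 42.00, 38.8 and 46.7 CPM against 58.9, 65.2 and 62.7 CPM (-0.55 ± 0.076 SE, adjusted p = 3.55e-06). Slfn8 read 63.2, 62.5 and 79.6 CPM against 83.9, 91.5 and 86.8 CPM (-0.35 ± 0.071 SE, adjusted p = 0.0012). In each of these genes EKO replicate 3 was the nearest of its group to the PBS libraries. The median over the 65 members, as log2 of the CPM over the PBS mean, was -0.34, -0.44 and -0.15 in EKO replicates 1 to 3 and -0.07, 0.07 and -0.01 in the PBS replicates. The size of this list's fall therefore varied between libraries, and the count of 29 became 15 without EKO replicate 1, 14 without EKO replicate 2 and 12 without PBS replicate 2. Upstream, the interferon gamma receptor chain Ifngr1 fell (182, 173 and 184 CPM against 215, 219 and 221 CPM, -0.28 ± 0.041 SE), and 4 of 28 genes of interferon receptors and JAK-STAT signalling passed, all lower. Beside Ifngr1 these were Stat2, Irf1 and Irf9. Stat2 and Irf9 are also counted among the interferon-stimulated genes that fell. The count of 4 was 2 without EKO replicate 2, 1 without PBS replicate 2 and 2 without PBS replicate 3. Families such as Slfn, Ifit and Oas hold similar copies whose reads may be split.

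Interferon-activated factors are known to bind a response element near the start of such genes. Of 52 members with a promoter in the RefSeq table of GRCm38.p6, 25 (48.1%) held GAAA, any 2 bases and GAAA on either strand within 250 bases before the start, against 3.4% of 9971 matched genes tested and 2.98% of 32851 promoters. Among members that passed and had a promoter, 12 of 22 held this element. The sequences of 2 members that fell show it in capitals, read 5' to 3' in the direction of the gene. Trim30a lies on the minus strand at chr7:104465194-104465443 and Ifit3 on the plus strand at chr19:34583279-34583528, where the element occurs 2 times. In both it is read on the opposite strand, as TTTC, 2 bases and TTTC.
Trim30a: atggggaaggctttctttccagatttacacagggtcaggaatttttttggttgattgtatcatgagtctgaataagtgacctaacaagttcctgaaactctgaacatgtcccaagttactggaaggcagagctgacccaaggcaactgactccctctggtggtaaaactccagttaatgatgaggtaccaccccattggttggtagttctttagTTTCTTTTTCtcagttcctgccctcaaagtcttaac
Ifit3: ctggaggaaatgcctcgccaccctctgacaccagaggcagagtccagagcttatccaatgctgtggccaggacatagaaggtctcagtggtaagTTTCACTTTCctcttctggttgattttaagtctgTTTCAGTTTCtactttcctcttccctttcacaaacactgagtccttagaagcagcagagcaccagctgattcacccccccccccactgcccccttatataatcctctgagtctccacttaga
Trim30a, a brake on Toll-like receptor signalling, had 80.6, 81.6 and 93.2 CPM in the EKO libraries and 101, 109 and 102 CPM after PBS (-0.29 ± 0.058 SE, edgeR adjusted p = 0.00105). Ifit3, a partner of the Ifit RNA-binding proteins, had 5.32, 4.65 and 10.6 CPM and 12.5, 12.6 and 12.4 CPM (-0.86 ± 0.20 SE, adjusted p = 0.00537), with EKO replicate 3 again nearest to the PBS libraries. A match of letters is a description and not a site of binding.

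Genes for MHC class II, which presents peptides to CD4 T cells, were low in these resting macrophages and lower after ApoE-deficient exosomes. Of 18 tested, 5 fell in edgeR, with a median of -0.32, and 8 were lower at an unadjusted p under 0.05. Cd74, the invariant chain that guides class II molecules to endosomes, read 42.5, 39.9 and 42.5 CPM against 66.3, 65.9 and 72.7 CPM (-0.71 ± 0.083 SE, edgeR adjusted p = 1.52e-07). H2-Aa, the alpha chain of I-A, read 9.71, 9.85 and 7.91 CPM against 15.6, 14.7 and 18.5 CPM (-0.83 ± 0.15 SE, adjusted p = 0.00038). The beta chain H2-Ab1 read 14.3, 12.1 and 9.9 CPM against 15.9, 19.2 and 20.3 CPM (-0.61 ± 0.14 SE, adjusted p = 0.00556). The groups were apart in all 3 genes, and for the chains of I-A EKO replicate 3 was the lowest library. Without EKO replicate 3, 2 members fell in place of 5, and H2-Ab1 was among the calls lost. Genes that mark dendritic cells and B cells also express class II: Flt3 had 0 to 2 counts in the EKO libraries and 5 to 9 after PBS, and Cd79a and Igkc had 0 in all 6, but Ighm had 1359 to 1569 counts in the EKO libraries and 1458 to 1617 after PBS, and Cd79b 27 to 36 and 22 to 62. Their part in the class II result was not tested.

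Class II promoters share a Y box, the motif ATTGG, which forms part of the module read by the class II regulators. Within 250 bases before the start it was found on either strand in 9 of 12 members with a RefSeq promoter (75%), against 40.5% of the matched genes tested and 33.8% of all promoters. Among members that passed and had a promoter, 2 of 3 held the motif. Capitals mark it in H2-Aa, on the minus strand at chr17:34287824-34288073, and in H2-Eb1, on the plus strand at chr17:34305617-34305866.
H2-Aa: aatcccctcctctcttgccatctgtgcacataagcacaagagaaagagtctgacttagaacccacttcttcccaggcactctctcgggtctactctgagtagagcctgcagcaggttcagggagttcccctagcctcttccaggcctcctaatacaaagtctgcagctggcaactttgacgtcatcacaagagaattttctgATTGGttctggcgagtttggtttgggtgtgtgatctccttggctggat
H2-Eb1: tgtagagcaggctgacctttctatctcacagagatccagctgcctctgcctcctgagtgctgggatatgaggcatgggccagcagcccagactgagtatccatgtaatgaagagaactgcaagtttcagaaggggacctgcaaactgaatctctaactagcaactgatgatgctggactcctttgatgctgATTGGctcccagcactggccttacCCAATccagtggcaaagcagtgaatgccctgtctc
H2-Eb1, the beta chain of I-E, read 8.9, 7.44 and 6.43 CPM in the EKO libraries and 10.8, 12.5 and 13.99 CPM after PBS (-0.71 ± 0.17 SE), a call lost without EKO replicate 3 or PBS replicate 3. In the class I list, 4 of 24 fell and 0 rose in edgeR, while DESeq2 and limma-voom each called 2 higher. The falls were led by H2-K1 (965, 918 and 986 CPM against 1035, 1055 and 1084 CPM, -0.15 ± 0.03 SE) and B2m, the shared light chain (-0.13 ± 0.032 SE), whose call was also lost without EKO replicate 1, PBS replicate 1 or PBS replicate 2. None of these calls stood without EKO replicate 2, and 2 stood without EKO replicate 1, PBS replicate 2 or PBS replicate 3.

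In the opposite direction, many genes of the vacuolar proton pump and the lysosomal membrane rose: 11 of 33 passed, all higher, with a median log2 fold change of 0.13. Beside Atp6v1a, the pump subunits Atp6v0a1 (505, 548 and 527 CPM against 437, 444 and 449 CPM, 0.25 ± 0.033 SE) and Atp6v1c1 (257, 246 and 261 CPM against 198, 204 and 225 CPM, 0.29 ± 0.043 SE) rose. Tcirg1, the pump subunit of osteoclasts and macrophage lysosomes, read 859.7, 859 and 833 CPM against 715, 741 and 776 CPM (0.19 ± 0.031 SE, edgeR adjusted p = 5.24e-05). Atp6v0d2, another subunit of osteoclasts, read 40.3, 43.9 and 43.1 CPM against 33.8, 33.7 and 30.1 CPM (0.38 ± 0.084 SE, adjusted p = 0.00328). Every EKO library was above every PBS library in these pump genes. The medians over the 33 members were 0.12, 0.11 and 0.12 in the EKO libraries and 0.00, -0.03 and 0.02 after PBS. The count of 11 was 7 without EKO replicate 1 or PBS replicate 2.

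Lysosomal hydrolases were less uniform, with 7 of 41 higher and 3 lower and a median of 0.051. Ctsd, the aspartic protease cathepsin D, rose from 6279.8, 6216 and 6580.5 to 7098, 7112 and 7158 CPM (0.16 ± 0.023 SE, edgeR adjusted p = 6.68e-06), with 34.4% of its exon length shared with other genes. Psap, the precursor of the saposins that help degrade sphingolipids, rose from 12147, 12268 and 13154 to 13808, 13631 and 13577 CPM (0.13 ± 0.025 SE). Gla, the alpha-galactosidase, and Ctsz, cathepsin Z, rose by 0.22 and 0.14. The cysteine proteases Ctsc, which activates granule proteases, and Ctsl, which trims the invariant chain, fell instead. Ctsc read 151, 145 and 147 CPM against 202, 195 and 196 CPM (-0.42 ± 0.049 SE), and Ctsl read 602, 615 and 625 CPM against 704, 730.1 and 724 CPM (-0.23 ± 0.03 SE).

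Many lysosomal genes carry the E box read by the lysosomal regulators of the TFEB family. The letters TCACGTG were found on either strand within 250 bases before the start in 6 of 27 pump and membrane genes with a RefSeq promoter (22.2%) and in 9 of 33 hydrolases (27.3%), against 5.79% of the matched genes tested and 3.13% of all promoters. Among members that passed and had a promoter, 3 of 8 pump and membrane genes and 3 of 9 hydrolases held these letters. In capitals they are shown for Atp6v1a, on the minus strand at chr16:44139260-44139509, and Ctsd, on the minus strand at chr7:142387828-142388077. GENCODE M21 places the outermost starts of Atp6v1a and Ctsd at 44139705 and 142388038. By these positions the Atp6v1a stretch and most of the Ctsd stretch lie inside the gene. The palindrome TCACGTGA counts as 2 overlapping matches, 1 per strand.
Atp6v1a: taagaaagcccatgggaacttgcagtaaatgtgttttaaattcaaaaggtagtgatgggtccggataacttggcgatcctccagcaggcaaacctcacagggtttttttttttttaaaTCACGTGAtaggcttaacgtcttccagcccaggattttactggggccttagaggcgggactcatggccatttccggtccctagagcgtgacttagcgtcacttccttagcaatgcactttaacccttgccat
Ctsd: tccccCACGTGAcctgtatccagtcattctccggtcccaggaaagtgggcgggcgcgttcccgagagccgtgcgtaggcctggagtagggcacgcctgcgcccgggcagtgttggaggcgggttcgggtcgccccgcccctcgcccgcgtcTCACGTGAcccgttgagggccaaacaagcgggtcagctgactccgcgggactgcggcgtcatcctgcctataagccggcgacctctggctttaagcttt
All 6 promoters shown were picked after the values of the genes were seen.

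In the endosomal routes around the lysosome a few genes rose. Of 31 Rab and endosome genes, 4 rose (12.9%) and 0 fell, with a median of 0.043. Among the rises were Tbc1d2, a regulator of Rab7 (47.9, 51.1 and 44.2 CPM against 32.4, 33.1 and 32.4 CPM, 0.55 ± 0.082 SE), Eea1, the tether of early endosomes (0.21 ± 0.04 SE), and Rab7b (0.18 ± 0.037 SE). Of 31 genes of the ESCRT machinery and tetraspanins, through which exosomes are made, Cd9 and Cd63 rose (0.17 ± 0.037 SE and 0.16 ± 0.041 SE). The call of Cd63 was lost without EKO replicate 1, PBS replicate 1 or PBS replicate 2. The autophagy list had 2 of 30 higher, Optn and Tax1bp1, and neither call stood in a fit of the 6 libraries alone, or without EKO replicate 1, 2 or 3, PBS replicate 2 or replicate 1 of the wild-type exosomes. The median of that list was 0.0076, and 1 call stood without PBS replicate 1 or with RLE factors.

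Receptors and carriers of lipids went both ways. Of 24 scavenger and phagocytic receptors, 7 rose and 2 fell. Gas6, the bridge between dying cells and TAM receptors, rose from 656, 643 and 669 to 789.6, 758 and 767 CPM (0.23 ± 0.03 SE, edgeR adjusted p = 9.72e-07), whereas Axl, a TAM receptor that binds it, fell from 356, 376 and 380.1 to 334, 308 and 326 CPM (-0.20 ± 0.038 SE, adjusted p = 0.000585). The groups did not overlap in either gene. The 7 rises became 4 without EKO replicate 1, EKO replicate 2 or PBS replicate 2, and 3 without EKO replicate 3 or PBS replicate 1. The 2 falls became 1 without EKO replicate 2, EKO replicate 3 or PBS replicate 3.

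Among 24 targets of LXR and genes of cholesterol efflux, 3 rose and 3 fell. Abca1 fell, and Soat1, which esterifies cholesterol for storage, and Nceh1, which splits the esters, rose by 0.19 and 0.16. Soat1 read 714, 699 and 691 CPM against 630.3, 599 and 615 CPM, and Nceh1 read 687, 700.3 and 721 CPM against 625, 639.9 and 618 CPM. Pltp, the phospholipid transfer protein, read 1084, 1121 and 1115 CPM against 1157, 1224 and 1319 CPM (-0.16 ± 0.034 SE), and missed the threshold without PBS replicate 3, where 1 member fell in place of 3. Of 19 genes of lipid droplets and lipid binding, 5 rose and 1 fell. Fabp5 and Fabp4, the fatty acid binding proteins of macrophages, rose from 96.9, 110.0 and 101 to 129, 132 and 131 CPM and from 33.2, 29.8 and 36.2 to 43.1, 42.98 and 46.8 CPM (0.35 ± 0.051 SE and 0.42 ± 0.10 SE). The call of Fabp4 was lost without PBS replicate 2, and the single fall without EKO replicate 1, PBS replicate 2 or PBS replicate 3. The 5 rises became 3 without EKO replicate 3 or PBS replicate 1 and 2 without PBS replicate 2.

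Genes of energy metabolism and protein synthesis mostly stayed below the threshold. None of 71 nuclear-encoded respiratory chain subunits, 23 genes of the TCA cycle, 25 of fatty acid oxidation, 12 of the pentose phosphate pathway and 52 cytosolic ribosomal proteins passed in edgeR. At an unadjusted p under 0.05, they held 2, 3, 3, 1 and 3 genes in this order, and DESeq2 called 1 gene of the TCA list and 0 in the other lists. The medians lay between -0.018 and 0.022. Of 28 glycolytic genes, Hk3, the hexokinase of myeloid cells, rose alone, from 244, 251 and 294 to 322, 348 and 330.4 CPM (0.34 ± 0.048 SE, edgeR adjusted p = 9.13e-06). PBS replicate 3 of Hk3 lay closest to the EKO libraries without reaching them. The list of cholesterol synthesis and uptake had 2 of 26 members higher and a median of 0.13. Neither rise of this list stood without EKO replicate 2, and 1 stood without EKO replicate 3, PBS replicate 1 or PBS replicate 2.

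Stress and proteostasis lists held few calls. Hspa5, the main chaperone of the endoplasmic reticulum, and Edem1, which sorts misfolded glycoproteins, rose by 0.15 and 0.19 among 26 genes of the unfolded protein response. Ahsa1, an activator of Hsp90, rose by 0.23, and Psmd8 was the proteasome subunit of 31 that rose (292, 285 and 303 CPM against 240.4, 247 and 250.03 CPM, 0.26 ± 0.038 SE). Without PBS replicate 3, 3 subunits rose, and 2 rose without replicate 2 or 3 of the wild-type exosomes. Fth1, the heavy chain of the iron store ferritin and one of the most abundant transcripts, read 20790.0, 20523 and 20326 CPM against 19280.0, 18344 and 19466 CPM (0.11 ± 0.023 SE, edgeR adjusted p = 0.0018). Steap3, an endosomal iron reductase, rose by 0.32, and Gstm1, a glutathione transferase, by 0.25. In the S phase list 1 of 39 rose and 1 fell. Pcna, the sliding clamp of DNA polymerases, rose from 109, 110.0 and 115 to 129, 138 and 136 CPM (0.27 ± 0.05 SE). Tk1, thymidine kinase, read 4.73, 5.56 and 8.54 CPM against 9.55, 12.2 and 8.55 CPM (-0.69 ± 0.20 SE, adjusted p = 0.0362), a call lost without EKO replicate 1 or 2 or PBS replicate 1 or 2, while 2 members fell without EKO replicate 3. None of 40 genes of mitosis passed in edgeR, with a median of -0.13. Of these, 5 were under an unadjusted p of 0.05 in edgeR, and DESeq2 called 0. Without PBS replicate 3, 1 gene fell. The medians in the EKO libraries were -0.19, -0.04 and -0.11, against -0.03, 0.08 and -0.02 after PBS.

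Adhesion and the cytoskeleton fell in part. Of 19 integrins and partners, 6 fell and 2 rose. Itgal, the alpha chain of LFA-1, read 241, 210.1 and 211 CPM against 291, 258 and 275 CPM (-0.32 ± 0.047 SE, edgeR adjusted p = 1.43e-05). Itga4, a partner in VLA-4, fell by 0.23 and Itga6, a laminin receptor chain, by 0.19. Neither of the rises stood without EKO replicate 1, EKO replicate 3, PBS replicate 1, PBS replicate 2 or replicate 1 of the wild-type exosomes, and 1 stood without EKO replicate 2. Of 33 genes of actin regulation, 10 fell and 2 rose. Marcks fell from 274, 262 and 276 to 215, 224 and 226 CPM (-0.29 ± 0.042 SE), Tmsb4x, the actin-sequestering thymosin, from 1828, 1782 and 1817 to 1561, 1632 and 1612 CPM (-0.18 ± 0.027 SE), and Vasp, which extends actin filaments, from 168, 157 and 169.9 to 140.3, 137 and 135 CPM (-0.26 ± 0.046 SE). Capg, an actin-capping protein, rose by 0.14. Without EKO replicate 1, 1 member rose in place of 2.

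Secreted matrix genes went both ways. Thbs1 had 171, 169 and 159.9 CPM in the EKO libraries and 273, 283 and 296 CPM after PBS (-0.77 ± 0.048 SE, edgeR adjusted p = 7.33e-14). Tgfbi, a matrix protein induced by TGF-beta, read 193, 189 and 185 CPM against 246, 251 and 226 CPM (-0.35 ± 0.056 SE). Every EKO library was below every PBS library in both. With Lgals3 and Spp1, 2 of 24 matricellular genes and galectins rose and 5 fell, or 3 without EKO replicate 1, while 4 rose without PBS replicate 3. Mmp12, macrophage elastase, rose from 257, 246 and 260.3 to 292, 290.1 and 321 CPM (0.24 ± 0.04 SE) while Mmp14 fell. The osteoclast list went both ways, with 5 of 19 higher and 4 lower. Gpnmb, Tcirg1 and Atp6v0d2, which are also counted in the proton pump and lysosomal membrane list, rose. Tnfrsf11a, the receptor RANK, read 134, 134 and 129.8 CPM against 151, 155 and 161 CPM (-0.23 ± 0.05 SE). The 5 rises became 3 without EKO replicate 1, PBS replicate 1 or PBS replicate 2.

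**Figure D3:**
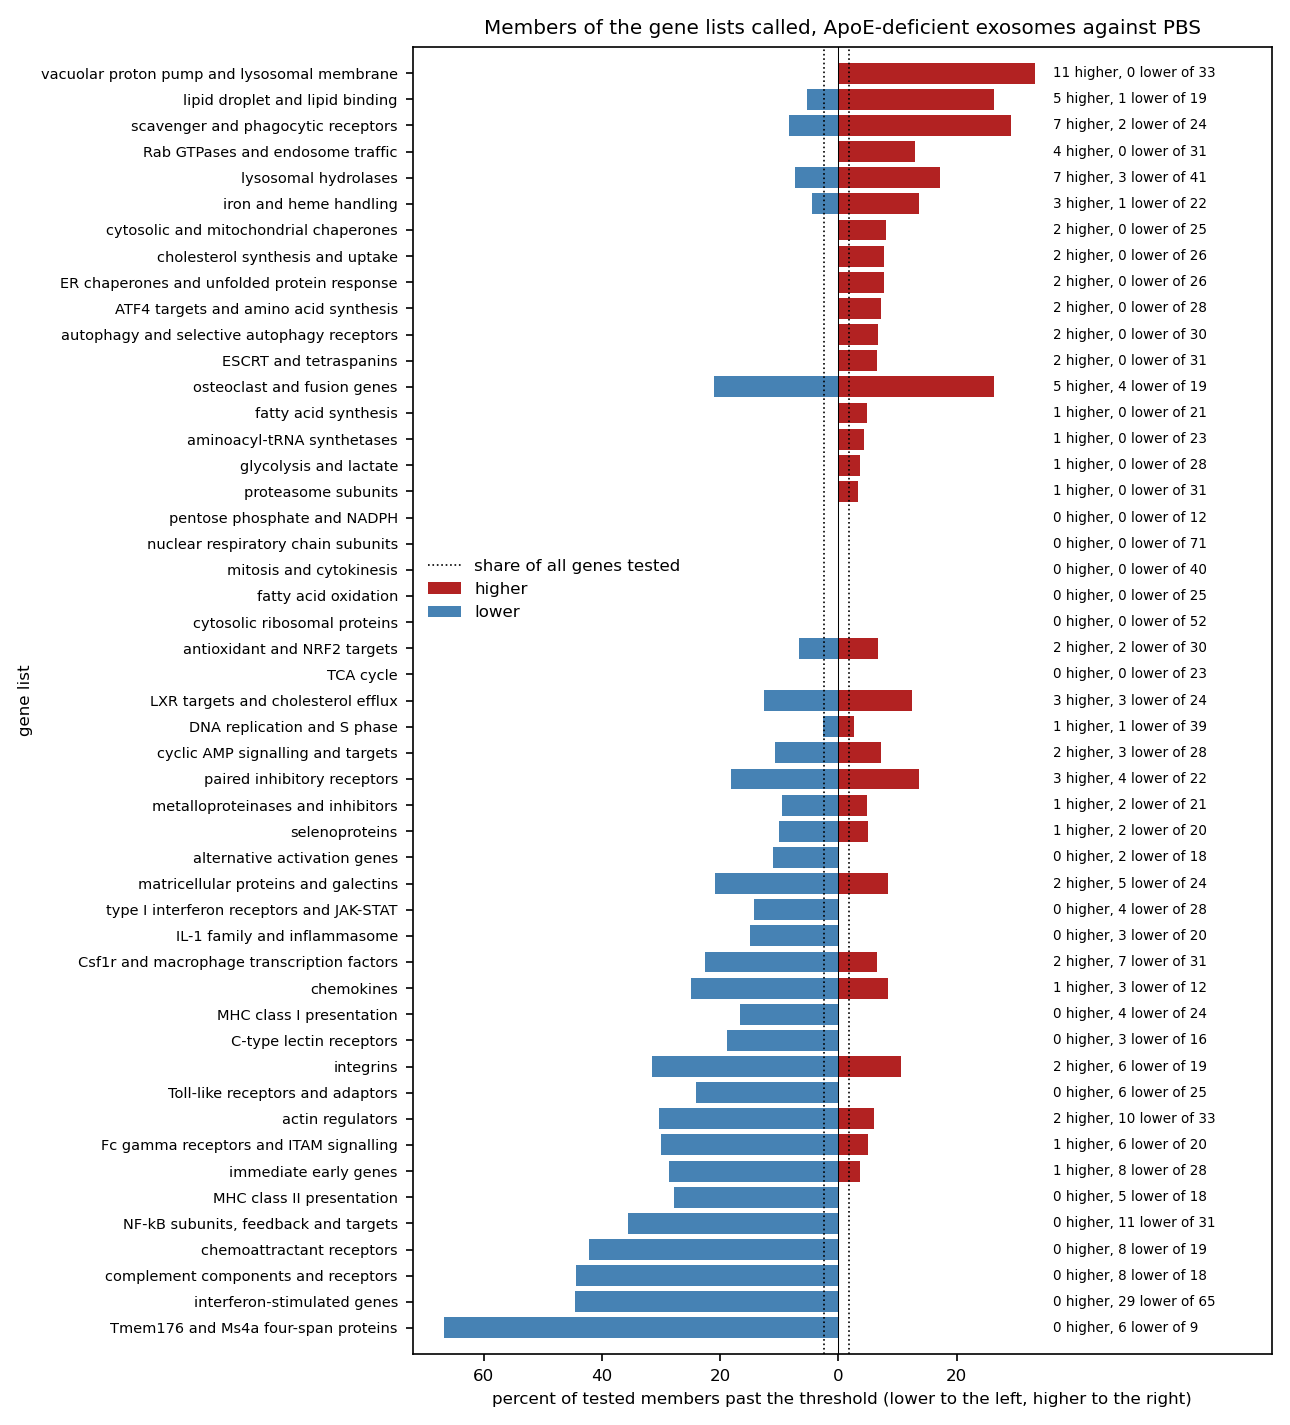
Each bar gives, for a gene list, the percent of its tested members that fell (blue, to the left) or rose (red, to the right) after ApoE-deficient exosomes against PBS, with the counts at the right; dotted lines mark the shares over all genes tested, 2.41% and 1.82%. Tmem176 and Ms4a proteins, interferon-stimulated genes, complement and chemoattractant receptors extend farthest to the left, and the proton pump and lysosomal membrane farthest to the right.

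**Figure D4:**
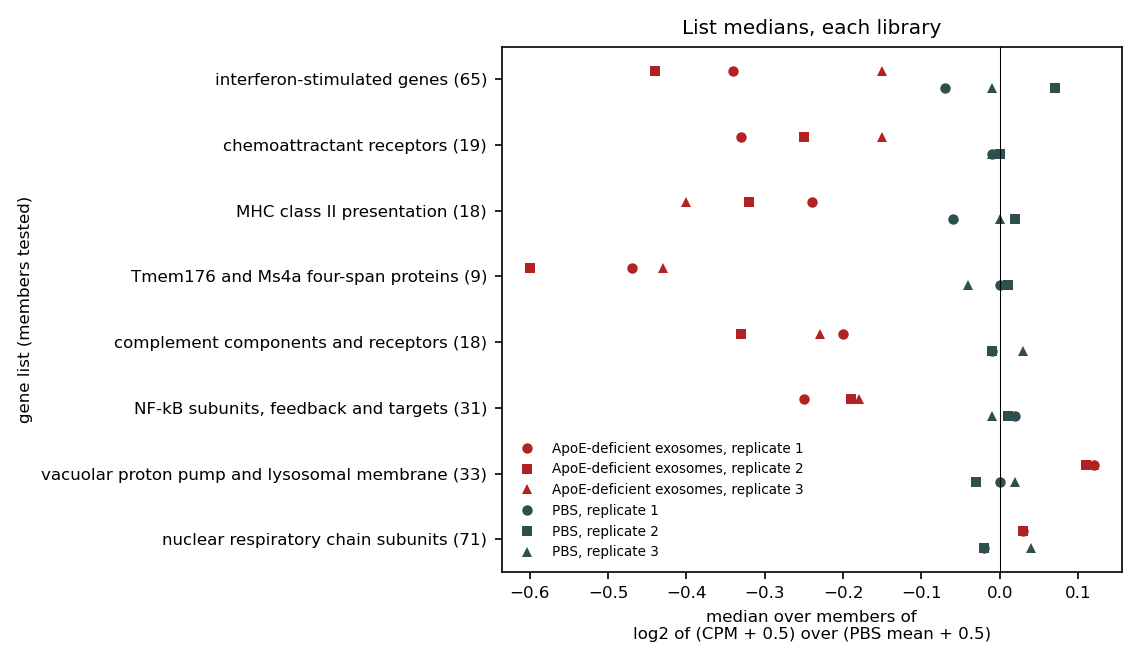
Points give the median over a list's members of log2 of (CPM + 0.5) over (PBS mean + 0.5) in each library (red, ApoE-deficient exosomes; dark, PBS; the shape gives the replicate). The interferon-stimulated genes range from -0.44 to -0.15 over the EKO libraries, whereas the proton pump and lysosomal membrane genes stay between 0.11 and 0.12.

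The exosomes of either donor genotype were compared directly, in the same fit, using the 3 libraries of wild-type exosomes. That comparison shares the EKO libraries with the comparison against PBS, so low or high values of those libraries move both, and the values are given side by side. Between the exosomes 96 of 13815 genes passed (0.695%), 39 higher (0.282%) and 57 lower (0.413%) after ApoE-deficient exosomes. Leaving out a library gave 52 genes without EKO replicate 1, 56 without EKO replicate 2, 59 without replicate 2 and 56 without replicate 3 of the wild-type exosomes.

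Of the 24 genes named for the lowest p against PBS, 7 passed this test. Of all 585 genes that passed against PBS, 50 did. For Cd14 and Csf1r, which did not, the log2 fold changes of wild-type exosomes against PBS were -0.36 and -0.22. Those of ApoE-deficient exosomes were -0.37 and -0.28. Cx3cr1 was at 199 ± 3.32 CPM (SD, n = 3) after wild-type exosomes, close to the EKO libraries, with a log2 difference of -0.034 ± 0.039 (edgeR adjusted p = 0.907). For Gpnmb the difference was 0.015 ± 0.024 (adjusted p = 0.948), for Anpep -0.019 ± 0.028 (adjusted p = 0.942) and for Atp6v1a 0.044 ± 0.029 (adjusted p = 0.759). Of the 33 proton pump and lysosomal membrane genes, 0 passed between the exosomes in edgeR and 0 in DESeq2, and 3 were under an unadjusted p of 0.05 in edgeR. A p above the threshold does not show that the exosomes acted alike on these genes.

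Some of the genes that fell against PBS were lower after ApoE-deficient than after wild-type exosomes. C1qa stood at 457 ± 6.37 CPM (SD, n = 3) after wild-type exosomes, and the difference of -0.18 ± 0.032 passed (edgeR adjusted p = 0.000877). All 3 C1q chains and C3 passed, 4 of the 18 complement genes, each lower after ApoE-deficient exosomes, or 2 without replicate 2 of the wild-type exosomes. For C1qc, the wild-type exosome libraries (1595, 1656 and 1598 CPM) overlapped those of PBS. Fcgr1 was at 121 ± 4.47 CPM, a difference of -0.39 ± 0.052 (adjusted p = 9.58e-06), and Thbs1 at 214 ± 18.6 CPM, a difference of -0.36 ± 0.048 (adjusted p = 1.4e-05). In C1qa, Fcgr1 and Thbs1 the wild-type exosome libraries lay between the other groups. The same held for Abca1, at 549.9, 593 and 557 CPM after wild-type exosomes, a difference of -0.16 ± 0.033 (adjusted p = 0.00456). For Siglec1 (320.1 ± 3.93 CPM, difference -0.25 ± 0.041, adjusted p = 0.000324) and Lgals3bp, a secreted glycoprotein induced by interferon (747 ± 37.6 CPM, difference -0.25 ± 0.038, adjusted p = 0.000102), they lay near or above PBS. Of the 65 interferon-stimulated genes, 9 passed between the exosomes, all lower after ApoE-deficient ones. That count was 16 with no filter on low counts and 15 with the replicate block. It was 4 without EKO replicate 1, 2 without EKO replicate 2, 20 without EKO replicate 3, and 4, 5 and 3 without replicates 1, 2 and 3 of the wild-type exosomes.

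Other genes lay on opposite sides of PBS after the exosomes of either genotype. Gpx1, the selenium-dependent glutathione peroxidase, read 333, 345 and 330.3 CPM in the EKO libraries, 393, 378 and 409 CPM after PBS and 571, 559.9 and 552 CPM after wild-type exosomes. It was below PBS by 0.23 on the log2 scale (edgeR adjusted p = 1.93e-05) and below wild-type exosomes by 0.74 (adjusted p = 1.64e-17). The 3 groups did not overlap. Atf4, the transcription factor of the integrated stress response, read 133, 140.4 and 129 CPM, 117, 118 and 118 CPM and 89.6, 94.2 and 99.2 CPM in the same order. Its difference from PBS (0.19 ± 0.051 SE, adjusted p = 0.0238) was lost without EKO replicate 1 or 2 or any of the PBS replicates, and its difference from wild-type exosomes was 0.51 ± 0.052 (adjusted p = 6.97e-08). Aars, the alanyl-tRNA synthetase, and Asns, asparagine synthetase, followed the same order, with differences of 0.48 ± 0.053 and 1.19 ± 0.14 from wild-type exosomes (adjusted p = 3.31e-07 and 2.11e-06). The difference of Aars from PBS (0.20 ± 0.053 SE, adjusted p = 0.0169) was lost without any EKO replicate or without PBS replicate 1 or 2, and that of Asns (0.46 ± 0.14 SE, adjusted p = 0.0498) without EKO replicate 2 or 3 or PBS replicate 1 or 3. Asns read 18.2, 21.1 and 25.2 CPM in the EKO libraries and 13.8, 18.3 and 14.6 CPM after PBS, which overlapped.

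Seen as lists, 7 of 28 targets of ATF4 and 7 of 23 aminoacyl-tRNA synthetases passed between the exosomes, all higher after ApoE-deficient ones, whereas 2 and 1 passed against PBS. The 7 synthetases became 4 without EKO replicate 1 or 2 or replicate 2 or 3 of the wild-type exosomes, and 3 without EKO replicate 3. The medians of the ATF4 list were 0.07, 0.15 and 0.13 in the EKO libraries, 0.03, -0.05 and 0.00 after PBS and -0.26, -0.23 and -0.24 after wild-type exosomes. In this list the libraries of wild-type exosomes stood farther from PBS than the EKO libraries did. Hmox1, heme oxygenase, fell against PBS by 0.11 with ApoE-deficient exosomes and lay above wild-type exosomes by 0.21 ± 0.033 (edgeR adjusted p = 0.0447 and 0.000183). The call against PBS was lost without EKO replicate 2 or 3, PBS replicate 1 or 2 or replicate 2 of the wild-type exosomes, with upper-quartile factors and with no filter on low counts. Selenop, the plasma carrier of selenium, fell by 0.09 against PBS, a call lost without any single EKO replicate, PBS replicate 1 or 3, or replicate 2 or 3 of the wild-type exosomes, and also with upper-quartile factors, with no filter and in the 6 libraries alone, and lay below wild-type exosomes by 0.18 (adjusted p = 0.000118).

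**Figure D5:**
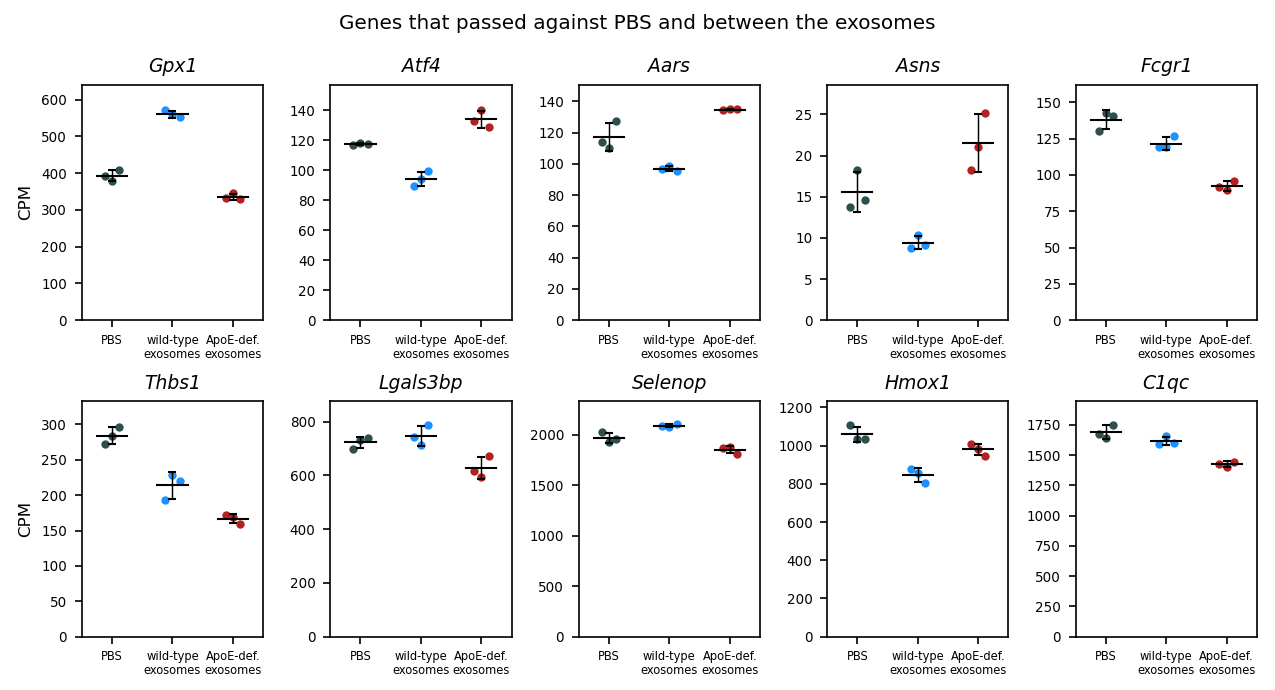
For 10 genes that passed both against PBS and between the exosomes, points give the CPM of each library by group, with the mean and SD over 3 libraries as a line and bar and axes from 0. Gpx1 was highest and Atf4, Aars and Asns lowest after wild-type exosomes, whereas Fcgr1 and Thbs1 were lowest after ApoE-deficient exosomes.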

How the data were processed

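RNA of 9 libraries of mouse bone marrow-derived macrophages was sequenced, and 6 of them form the main comparison. The authors deposited a table of raw read counts per gene. Per the submitters' processing notes, STAR 2.7.5c and the GRCm38 build were used. How reads were trimmed, which strand setting was chosen and which annotation was counted on is not given in the sources used here. All 55536 gene IDs matched a symbol in GENCODE M21, from which positions and exon overlaps were taken.

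Counts were fitted with edgeR 4.0.16 in R 4.3.3 (quasi-likelihood F test, robust, TMM factors, minimum count of 10 in its expression filter) on all 9 libraries by group. A gene passed at a Benjamini-Hochberg adjusted p under 0.05 over 13815 genes. The fit was tested on simulated counts. With 3 libraries against 3, an exact permutation test cannot go below p = 0.1, so none was used per gene. Alternatives were DESeq2 1.42.0, limma 3.58.1 (voom), other library factors and filters, the 6 libraries alone, a replicate block, and leaving out each library.

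Named were the 12 genes of lowest p in each direction (mean of at least 5 CPM, no overlap, no predicted genes), genes with a log2 change of at least 1, up to 6 members of each list by p, and up to 10 genes that passed both against PBS and between the exosomes. The comparison and the gene lists were chosen with earlier results of these data known. Promoters came from RefSeq GRCm38.p6. Some named genes are not reported here.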

Additional observations from a re-analysis of the deposited data

How the results depend on the processing

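No gene that passed against PBS both in the reported fit and under an alternative differed in direction between them. For genes that lost their call, the direction was compared only where they were named. Apoe, which did not pass, went from -0.028 to 0.00023 without PBS replicate 3. Against PBS, 585 genes passed in the reported fit, and 288 of them passed under every setting. The count was 711 with DESeq2, 623 with limma-voom, 672 at a mean of at least 5 CPM, and between 577 and 597 with other library factors, no filter or the 6 libraries alone. Leaving out single libraries gave 421 (without EKO replicate 2) to 586. Between the exosomes, 96 genes became 157 with DESeq2 and 52 to 109 when single libraries were left out. The cause of these shifts was not tested. Some list counts moved by over 1.5 times with the tool: DESeq2 called 5 lectin receptors lower in place of 3, 7 genes of JAK-STAT signalling lower in place of 4, and 5 genes of the unfolded protein response higher in place of 2. DESeq2 also called 2 class I genes higher in place of 0, and limma-voom 5 antioxidant genes higher in place of 2, 5 of iron handling in place of 3 and 1 of cyclic AMP signalling in place of 2. No label says whether a replicate number marks a shared animal or day. Libraries of different groups with the same number correlated at -0.035 to 0.0402 in their deviations from the group means. Those with different numbers correlated at -0.0483 to 0.0385. With 3 libraries per group, such correlations over all genes tested cannot exclude a pairing. With the replicate block, 662 genes passed against PBS and 144 between the exosomes. Of the 585 genes that passed, 8 were under 5 CPM after PBS; the part of depth was not tested.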
